A study of Mus musculus with 20 samples.

Results

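Anti-VEGFA added to olaparib was read from 7 of the 20 tumours of the series, as 4 tumours given both agents against 3 given olaparib alone, over all 18144 genes that passed a filter on low counts. Tumours were chosen by their treatment labels and by no measured value. All grew in C57/BL6 female mice after intraperitoneal injection of a single luciferase-expressing derivative of ID8, a mouse ovarian surface epithelial cancer line, with the genotype Trp53-/-Brca1-/-. Mice of the PARPi+anti-VEGFA group received oral olaparib, an inhibitor of the DNA repair enzyme PARP, at 40 mg/kg per day, with 20 µg of an antibody against VEGFA injected into the peritoneum 2 times a week. Mice of the PARPi group received olaparib at the same dose and no antibody. To see the same antibody on another background, 4 tumours given olaparib, anti-VEGFA and dual checkpoint blockade (ICB, antibodies against PD-L1 at 200 µg and against CTLA-4 at 100 µg) were set against 3 given olaparib and ICB. Untreated tumours (n = 3) of the same cells stand beside these as a further level. The labels do not give the mice's age, the length of treatment or the time of collection, and name no isotype control antibody. Each library is read as 1 animal from its title.

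VEGFA is a secreted growth factor that drives endothelial cells to divide and sprout, mainly through the receptor KDR, while FLT1 binds it with high affinity and acts in part as a decoy. Vessels are held stable by pericytes and by signalling of ANGPT1 through the receptor TEK, which ANGPT2 can oppose. VEGFA also loosens endothelial junctions and is known to limit the entry of lymphocytes into tumours. In bulk tumour RNA, fewer cells of a type and less RNA per cell cannot be told apart.

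Library totals were 26.9 to 34.0 M counts in PARPi+anti-VEGFA tumours and 31.0 to 34.6 M in PARPi tumours. The tumours carried RNA of their cell of origin. Wt1, a transcription factor of mesothelium and ovarian surface epithelium, had 951, 855, 808 and 795 CPM in PARPi+anti-VEGFA tumours, against 971, 956 and 960 CPM in PARPi tumours. Msln, the mesothelial surface protein mesothelin, had 220, 231, 205 and 203 CPM in PARPi+anti-VEGFA tumours, against 267, 258 and 238 CPM in PARPi tumours. Wt1 and Msln were both lower with anti-VEGFA and do not stand for their list. Of its 13 epithelial and mesothelial genes 8 were lower and 5 higher, with a median log2 fold change of -0.03. CPM are counts per megaread of the library after TMM normalization. Libraries also differed in RNA of neighbouring tissue. The 12 pancreatic acinar genes, digestive enzymes among them, averaged 5.64 and 5.66 log2 CPM in PARPi+anti-VEGFA tumours 1 and 4, and between -2.02 and -1.87 in the other 2 tumours of that group and the 3 PARPi tumours. Adipocyte genes averaged 0.50, 2.91, 1.98 and 0.43 log2 CPM in PARPi+anti-VEGFA tumours, against 0.58, -0.44 and -0.07 in PARPi tumours. Skeletal muscle genes averaged 2.64 in PARPi tumour 1 and 0.09 to 0.39 in the other 6. Rn7sk, Lars2 and Mir6236, averaged as a measure of library quality, had a mean of 2.73, 2.74, 2.81 and 2.72 log2 CPM with PARPi+anti-VEGFA, against 3.75, 4.31 and 2.99 with PARPi. All 4 libraries with anti-VEGFA lay below all 3 without it on that measure, and its part in the results below was not tested beyond the fit with it as a covariate.

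**Figure D1:**
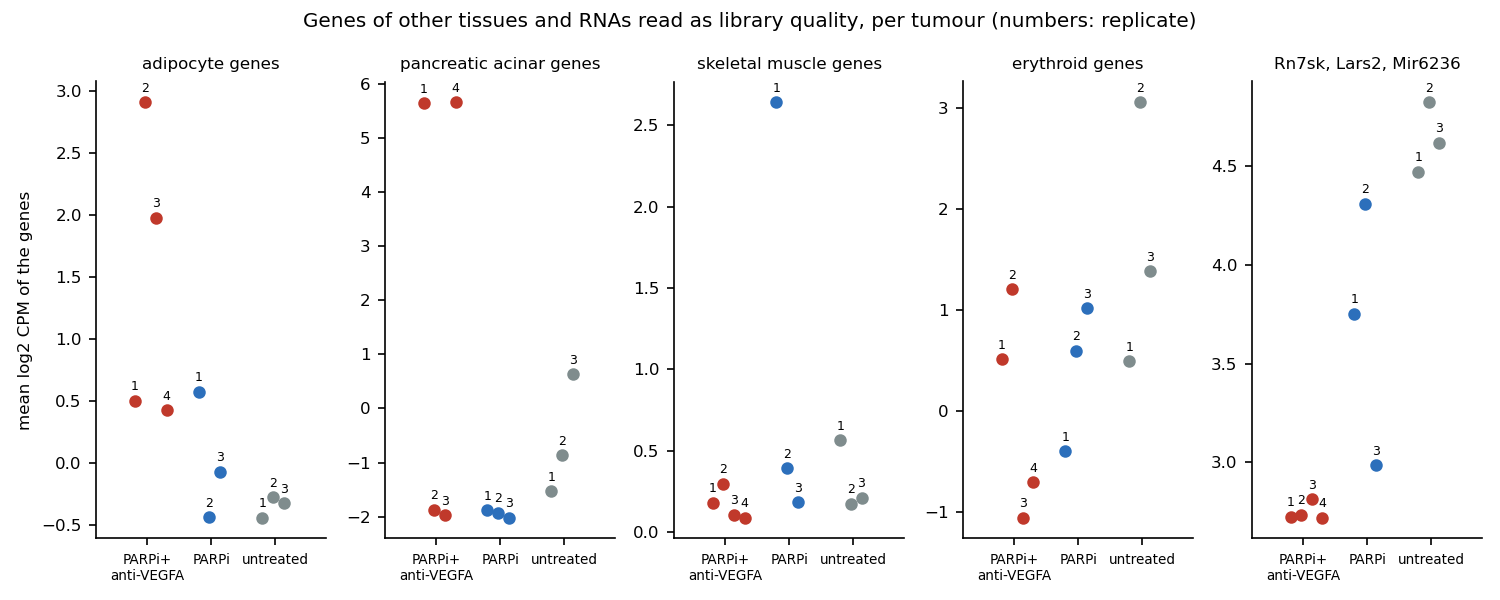
Mean log2 CPM of 4 lists of genes of neighbouring tissues or blood, and of Rn7sk, Lars2 and Mir6236, on the y axis for each PARPi+anti-VEGFA, PARPi and untreated tumour; points are tumours and the numbers are replicate numbers. Acinar genes stood at 5.64 and 5.66 in PARPi+anti-VEGFA tumours 1 and 4, and the mean of Rn7sk, Lars2 and Mir6236 was lower in all 4 PARPi+anti-VEGFA tumours than in the 3 PARPi tumours.

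The promoters of a matrix protease gene and of a protease inhibitor gene that were both called higher with anti-VEGFA are shown, since the values of this pair are taken up below. Windows run from 250 bases before to 50 bases after the gene start, as RefSeq gives them on GRCm38.p6. The Mmp3 window lies at chr9:7445572-7445871 on the plus strand, and its capitals mark the AP-1 motif TGANTCA at bases 205 to 211. The Timp1 window lies at chrX:20869916-20870215 on the plus strand, and its capitals mark ACGTG, the core of the hypoxia response element, at bases 169 to 173, counted from 1 at the 5′ end.
Mmp3: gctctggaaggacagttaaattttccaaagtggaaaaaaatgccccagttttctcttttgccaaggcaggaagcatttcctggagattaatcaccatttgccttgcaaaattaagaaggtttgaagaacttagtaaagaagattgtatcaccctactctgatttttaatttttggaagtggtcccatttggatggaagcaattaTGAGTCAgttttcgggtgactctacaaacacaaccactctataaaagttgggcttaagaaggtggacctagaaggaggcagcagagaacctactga
Timp1: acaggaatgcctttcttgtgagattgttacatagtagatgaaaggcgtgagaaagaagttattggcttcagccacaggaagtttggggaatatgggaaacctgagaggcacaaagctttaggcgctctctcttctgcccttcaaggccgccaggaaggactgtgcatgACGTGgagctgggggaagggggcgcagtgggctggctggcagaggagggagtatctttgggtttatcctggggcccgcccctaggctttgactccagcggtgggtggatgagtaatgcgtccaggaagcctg
In all 6 motifs were searched, on both strands and with overlaps allowed, and these windows and capitals were chosen after the matches had been seen. Of 32851 windows in the RefSeq table, 7.81% held TGANTCA (AP-1), 19.6% held ACGTG, 20.7% held GGGA followed by any 4 bases and CC (NF-kB), 8.3% held TTCNNNGAA (STAT), 9.56% held TTGCNNNAA (C/EBP) and 8.86% held CCGGAAG (ETS). Among the genes called higher with anti-VEGFA, 34 had a window, and these motifs stood in 2, 6, 11, 4, 8 and 2 of them in the same order. Among the genes called lower, 38 had a window, and the counts were 5, 7, 13, 2, 1 and 4. Some genes have several windows, so these counts and the shares of windows are not on the same footing, and a match is a description of the letters only.

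Genes higher after anti-VEGFA was added to olaparib included the matrix genes Spon1, Svep1 and Cilp, the collagen crosslinker Lox, the protease Mmp3, the chemokines Ccl11, Ccl7 and Ccl12 and the vessel-stabilising ligand Angpt1. Genes lower included the collagens Col10a1 and Col17a1, the peptidase Mme and the T cell inhibitory ligand Vtcn1. Of the 18144 genes, 104 were called (0.573%) by edgeR's quasi-likelihood test at a Benjamini-Hochberg adjusted p under 0.05, 54 higher (0.298%) and 50 lower (0.276%). The changes were moderate. The median log2 fold change, PARPi+anti-VEGFA over PARPi, was 0.84 among the genes called higher and -0.48 among those called lower, and 12 and 7 genes changed at least 2-fold. At an unadjusted p under 0.05, 7.94% of genes were higher and 7.53% lower. The tumours of the groups did not overlap for 54 of the 54 genes called higher and 49 of the 50 called lower, against 7.51% and 7.03% of all genes tested. The number of calls changed widely when single tumours were left out, which also leaves fewer samples. It was 0 without PARPi tumour 2, where 1956 genes had an unadjusted p under 0.05. All of the 54 and 50 genes were among these, with median log2 fold changes of 0.79 and -0.46. The number of calls was 15 without PARPi tumour 1 and 25 without PARPi tumour 3. It was 3, 10, 34 and 216 without PARPi+anti-VEGFA tumours 3, 4, 2 and 1. With the library quality measure as a covariate 1 gene was called, and the median log2 fold changes of the same 54 and 50 genes were then 0.87 and -0.47. DESeq2's Wald test called 649 of the same 18144 genes, 368 higher and 281 lower. Its counts in the lists below are to be read beside these.

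**Figure D2:**
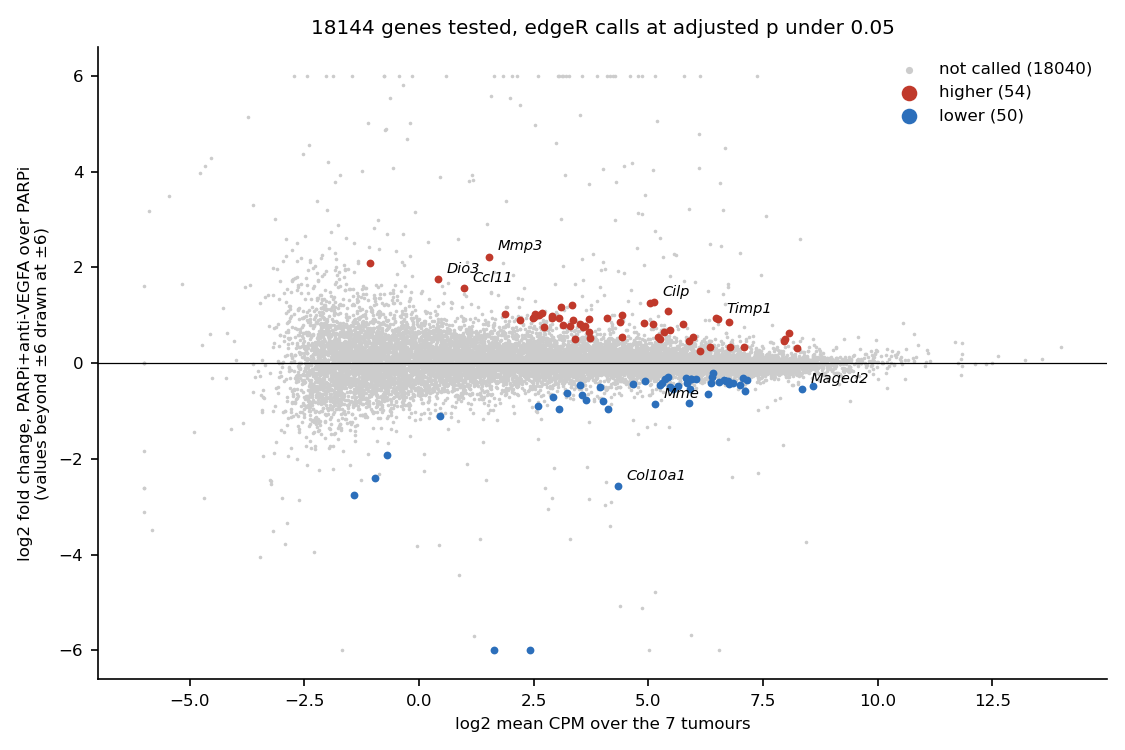
Log2 fold change of PARPi+anti-VEGFA over PARPi on the y axis against log2 mean CPM over the 7 tumours on the x axis; each point is a gene. The 54 genes called higher are red, the 50 called lower are blue, and most calls lie within 1 log2 unit of 0.

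Several of the genes called higher encode matrix proteins. Spon1, which encodes the matrix protein F-spondin, had the smallest p, and was named for that after its values were seen. Its level was 117, 136, 140 and 143 CPM in PARPi+anti-VEGFA tumours, against 72.5, 69.2 and 80.4 CPM in PARPi tumours. The groups were wide apart, with a log2 fold change of 0.85 ± 0.11 (SE; edgeR adjusted p = 0.0104). Svep1, a large cell adhesion protein of the extracellular matrix that binds TIE1 and ANGPT2 in lymphatic development, had 26.2, 30.3, 24.2 and 28.4 CPM with PARPi+anti-VEGFA, against 15.9, 13.1 and 12.1 CPM with PARPi. Its log2 fold change was 0.99 ± 0.14 (edgeR adjusted p = 0.0133), and it was called in 6 of 7 fits that each left out 1 tumour. Cilp, a secreted matrix protein of cartilage and fibroblasts, had 45.3, 48.4, 44.2 and 48.2 CPM with PARPi+anti-VEGFA, against 25.7, 15.1 and 16.7 CPM with PARPi (log2 fold change 1.28 ± 0.22, edgeR adjusted p = 0.0276). The 4 tumours with anti-VEGFA lay within a few CPM of each other. Without the libraries with acinar RNA, PARPi+anti-VEGFA tumours 1 and 4 among them, the log2 fold change of Cilp was 1.27 (edgeR adjusted p = 0.0530). Of that group only tumours 2 and 3, the highest in adipocyte genes, were then left. The part of acinar RNA was not tested beyond that fit. Lox, the enzyme that crosslinks collagen, had 80.3, 108, 119 and 144 CPM with PARPi+anti-VEGFA, against 59.5, 58.9 and 56.5 CPM with PARPi, and its log2 fold change was 0.95 ± 0.16 (edgeR adjusted p = 0.0223).

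The protease gene Mmp3, encoding stromelysin-1, had the largest change among genes of at least 1 CPM called higher. Its level was low, at 2.53, 3.68, 3.87 and 7.44 CPM with PARPi+anti-VEGFA, against 1.50, 0.675 and 0.604 CPM with PARPi. All tumours with anti-VEGFA lay above all without it, at a log2 fold change of 2.22 ± 0.44 (edgeR adjusted p = 0.0366). Timp1, the inhibitor of such proteases, had 76.9, 114, 110 and 159 CPM with PARPi+anti-VEGFA, against 62.1, 65.0 and 56.1 CPM with PARPi. It rose by 0.91 ± 0.19 on the log2 scale (edgeR adjusted p = 0.0395), and was named after its values were seen. Sfrp1 and Frzb, secreted proteins that bind WNT ligands, were also called, with log2 fold changes of 1.09 ± 0.20 and 1.00 ± 0.17 (edgeR adjusted p of 0.0279 and 0.0223). The laminin chain gene Lama1 rose by 1.02 ± 0.18 (edgeR adjusted p = 0.0279). The protease Adamts15 and the secreted protein gene Srpx rose by 0.97 ± 0.21 and 0.95 ± 0.20 (edgeR adjusted p of 0.0447 and 0.0444).

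Of 17 fibroblast and matrix genes tested, Lox was the 1 that passed the test, 16 had a positive log2 fold change, as had 49.5% of all genes tested, and 11 were higher at an unadjusted p under 0.05. DESeq2 called 7 of them. In none of the 38 gene lists did limma on log2 RPKM call a gene (0). Their median log2 fold change was 0.45, against -0.0024 over all genes tested. Col3a1, a fibrillar collagen, had 1603, 2426, 2145 and 2078 CPM with PARPi+anti-VEGFA, against 1387, 1346 and 1317 CPM with PARPi, and its edgeR adjusted p was 0.0716. Col5a2, which joins the same fibrils, had a log2 fold change of 0.47 ± 0.11 (edgeR adjusted p = 0.0614). The list's mean log2 CPM was 6.96, 7.40, 7.26 and 7.15 with PARPi+anti-VEGFA, against 6.88, 6.77 and 6.84 with PARPi. Adipocyte genes, given above, were also highest in PARPi+anti-VEGFA tumours 2 and 3, and their part was not tested. Among 10 basement membrane genes, which encode the sheet around vessels and under epithelium, 0 were called by edgeR and 2 by DESeq2, 2 were higher and 1 lower at an unadjusted p under 0.05, and the median was 0.0004. Outside that list, the laminin chain gene Lama1, given above, was called higher. Lama3, another, named after its values were seen, was called lower (log2 fold change -0.37 ± 0.08, edgeR adjusted p = 0.0395).

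**Figure D3:**
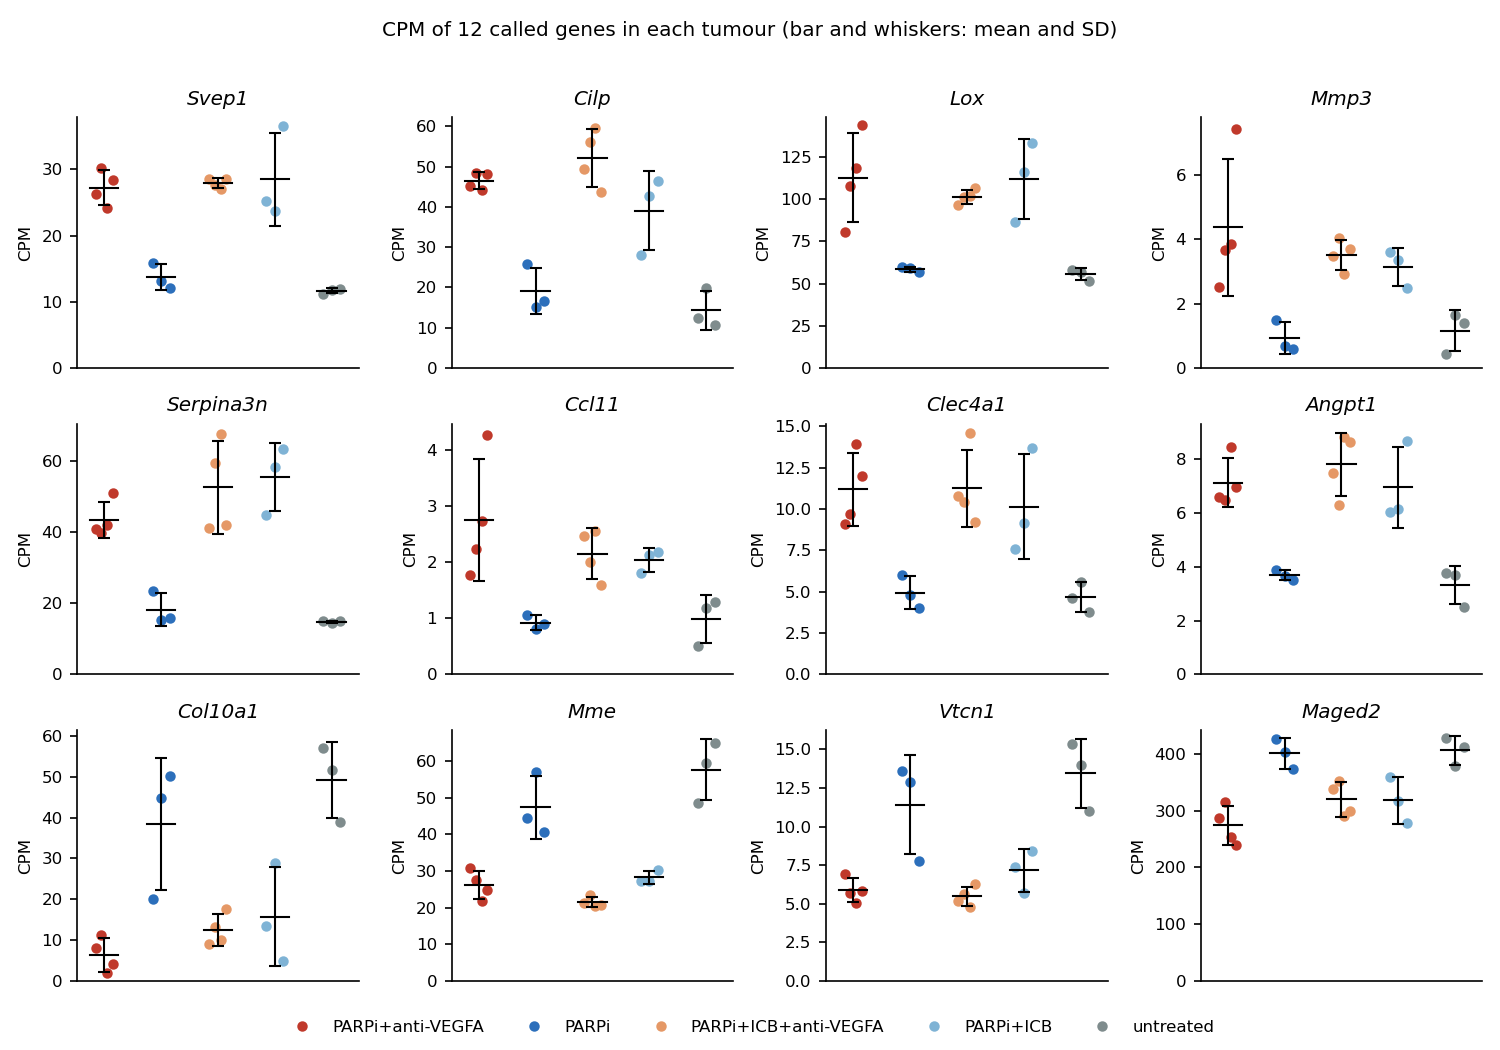
CPM on the y axis of 12 genes called with anti-VEGFA, for each tumour of 5 groups; points are tumours, bars means and whiskers SD. Cilp lay at 44.2 to 48.4 CPM in the 4 PARPi+anti-VEGFA tumours, against 15.1 to 25.7 CPM in the 3 PARPi tumours, while Col10a1 lay lower with anti-VEGFA.

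Among genes of the angiogenic pathway itself, few passed the test. Vegfa, the antibody's target, had 510, 602, 528 and 658 CPM with PARPi+anti-VEGFA, against 542, 643 and 575 CPM with PARPi. The tumours of both groups overlapped, and the log2 fold change was -0.03 ± 0.18 (edgeR adjusted p = 0.961). RNA does not measure the protein that the antibody binds. Kdr, the main receptor, had 37.0, 34.5, 33.4 and 28.2 CPM with PARPi+anti-VEGFA, against 27.4, 28.5 and 26.9 CPM with PARPi (log2 fold change 0.27 ± 0.10, edgeR adjusted p = 0.196). Flt1 had a log2 fold change of -0.19 ± 0.13 (edgeR adjusted p = 0.518), and the co-receptor Nrp1 one of -0.20 ± 0.10 (edgeR adjusted p = 0.371). Vegfc, the ligand that acts mostly on lymphatic vessels, had 7.01, 9.16, 13.3 and 11.5 CPM with PARPi+anti-VEGFA, against 6.94, 6.97 and 6.87 CPM with PARPi. Its log2 fold change of 0.56 ± 0.16 did not pass (edgeR adjusted p = 0.122). Of all 10 VEGF ligands and receptors, 0 were called by edgeR and 1 by DESeq2, 2 were higher and 0 lower at an unadjusted p under 0.05, and the median log2 fold change was -0.04.

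Angpt1, the ligand that stabilises vessels, was called. It had 6.57, 6.48, 8.42 and 6.95 CPM with PARPi+anti-VEGFA, against 3.89, 3.66 and 3.50 CPM with PARPi, a log2 fold change of 0.95 ± 0.18 (edgeR adjusted p = 0.0301). Angpt1 was called in 2 of 7 fits that each left out 1 tumour. Its antagonist Angpt2 had 21.8, 13.6, 8.10 and 11.6 CPM with PARPi+anti-VEGFA, against 16.9, 22.1 and 20.1 CPM with PARPi, with overlap and an edgeR adjusted p of 0.556. Plvap, a protein of the diaphragms of endothelial pores, had 26.3, 27.4, 25.4 and 20.5 CPM with PARPi+anti-VEGFA, against 18.0, 17.1 and 16.1 CPM with PARPi. It rose by 0.54 ± 0.12 (edgeR adjusted p = 0.0453) but was called in 0 of 7 fits that each left out 1 tumour. These were the 2 of 15 tip cell, angiopoietin and apelin genes called by edgeR, DESeq2 called 3, and the median of that list was 0.02. Of 20 endothelial identity genes 0 were called by edgeR and 2 by DESeq2, 2 were higher at an unadjusted p under 0.05 and the median was 0.07. Those 2 were Fabp4, a fatty acid carrier, and Cd36, a fatty acid and scavenger receptor, both of which adipocytes also express. Fabp4 had 14.1, 38.2, 27.0 and 14.7 CPM with PARPi+anti-VEGFA, against 11.0, 12.6 and 11.9 CPM with PARPi (edgeR adjusted p = 0.131). Cd36 had 15, 21.6, 19.4 and 15.8 CPM with PARPi+anti-VEGFA, against 8.03, 12.3 and 12.7 CPM with PARPi (edgeR adjusted p = 0.156). Both were highest in PARPi+anti-VEGFA tumours 2 and 3, where adipocyte genes also stood highest, at 2.91 and 1.98 log2 CPM, and the part of adipocyte RNA was not tested. Pericyte and mural cell genes had a median of -0.19, with 0 of 12 called by edgeR, 1 by DESeq2 and 5 lower at an unadjusted p under 0.05. Rgs5, a pericyte marker, had 158, 98.5, 84.1 and 75.5 CPM with PARPi+anti-VEGFA, against 144, 149 and 161 CPM with PARPi. PARPi+anti-VEGFA tumour 1 lay among the PARPi tumours for Rgs5 and also for Cspg4, another pericyte gene, at 33.4 CPM against 31.0 to 35.1 CPM. The median of the pericyte list was 0.02 with the library quality covariate, and with 1 tumour left out it lay between -0.31 (without PARPi+anti-VEGFA tumour 1) and -0.10 (without tumour 3).

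Of 17 hypoxia-induced genes 0 were called by edgeR and 1 by DESeq2, 5 were higher at an unadjusted p under 0.05 and the median log2 fold change was 0.28. With 1 tumour left out that count ranged from 1 to 8, and the median was 0.16 without PARPi+anti-VEGFA tumour 4. Bnip3, a mitochondrial protein gene induced by low oxygen, had 17.2, 22.7, 32.9 and 36.0 CPM with PARPi+anti-VEGFA, against 11.1, 17.4 and 14.4 CPM with PARPi (edgeR adjusted p = 0.105). PARPi+anti-VEGFA tumour 1 fell within the PARPi range for it.

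Chemokine genes were also called. Ccl11, the eosinophil attractant eotaxin, had 1.77, 2.24, 2.73 and 4.27 CPM with PARPi+anti-VEGFA, against 1.06, 0.803 and 0.890 CPM with PARPi, a log2 fold change of 1.57 ± 0.32 (edgeR adjusted p = 0.0399). Its neighbours on chromosome 11, Ccl7 and Ccl12, attract monocytes. Ccl7 had 7.51, 10.9, 10.3 and 14.6 CPM with PARPi+anti-VEGFA, against 6.42, 5.97 and 6.20 CPM with PARPi (log2 fold change 0.80 ± 0.17, edgeR adjusted p = 0.0436). Ccl12, named after its values were seen, had 14.6, 15.4, 16.1 and 15.6 CPM with PARPi+anti-VEGFA, against 10.2, 8.99 and 10.3 CPM with PARPi. Its log2 fold change was 0.65 ± 0.10 (edgeR adjusted p = 0.0186). Cxcl14, a chemokine made by epithelium and fibroblasts, rose by 1.21 ± 0.24 (edgeR adjusted p = 0.0366), and the alarmin Il33 by 0.69 ± 0.15 (edgeR adjusted p = 0.0498). Of 18 inflammatory cytokine genes tested, Ccl7 and Il33 were called, DESeq2 called 3, 17 had a positive log2 fold change and 7 an unadjusted p under 0.05, with a median of 0.53. The median was 0.31 without PARPi+anti-VEGFA tumour 4. With 1 tumour left out, Ccl7 was called in 1 of 7 fits and Il33 in 0.

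Serpina3n, a secreted inhibitor of serine proteases of the acute phase response, had 40.8, 39.8, 42.1 and 50.9 CPM with PARPi+anti-VEGFA, against 23.5, 15.3 and 15.9 CPM with PARPi. It rose by 1.25 ± 0.21 (edgeR adjusted p = 0.0223), and Cp, the copper carrier ceruloplasmin, by 0.45 ± 0.09 (edgeR adjusted p = 0.0395). They were the 2 of 7 acute phase genes called by edgeR, DESeq2 called 3, and the list's median was 0.45. Saa3, a serum amyloid gene expressed in macrophages and fibroblasts, varied widely, at 26.1, 28.0, 55.4 and 147 CPM with PARPi+anti-VEGFA, against 11.3, 18.7 and 24.4 CPM with PARPi (edgeR adjusted p = 0.167).

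Genes of myeloid cells and lymphocytes mostly had positive log2 fold changes, and few passed the test. Clec4a1, a C-type lectin of myeloid cells, had 9.11, 9.72, 13.9 and 12.0 CPM with PARPi+anti-VEGFA, against 5.99, 4.82 and 4.04 CPM with PARPi (log2 fold change 1.17 ± 0.23, edgeR adjusted p = 0.0366). Lyz1, a lysozyme gene, rose by 1.05 ± 0.22 (edgeR adjusted p = 0.0405), and its reads may be shared with the near-identical Lyz2. Of 13 macrophage genes 0 were called by edgeR and 7 by DESeq2, and all 13 had a positive log2 fold change and 10 an unadjusted p under 0.05, with a median of 0.34. Mrc1, the mannose receptor of resident macrophages, had 63.9, 72.1, 71.4 and 70.3 CPM with PARPi+anti-VEGFA, against 43.0, 38.2 and 45.0 CPM with PARPi. The groups did not overlap, and the edgeR adjusted p was 0.0833. Arg1, the arginine-degrading enzyme of suppressive myeloid cells, had 19.6, 38.8, 56.7 and 126 CPM with PARPi+anti-VEGFA, against 8.78, 11.3 and 19.1 CPM with PARPi (edgeR adjusted p = 0.114).

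Of 15 T cell genes all had a positive log2 fold change, 10 an unadjusted p under 0.05, 1 was called by edgeR and 6 by DESeq2, with a median of 0.67. Without the libraries with acinar RNA 6 had an unadjusted p under 0.05. The called gene was Bcl11b, a transcription factor of T cell commitment, which had 6.48, 4.36, 6.02 and 5.93 CPM with PARPi+anti-VEGFA, against 3.22, 2.70 and 3.24 CPM with PARPi (log2 fold change 0.90 ± 0.18, edgeR adjusted p = 0.0367). Cd8a, the co-receptor of cytotoxic T cells, had 14.3, 10.5, 22.0 and 17.5 CPM with PARPi+anti-VEGFA, against 7.60, 6.84 and 7.95 CPM with PARPi. It lay apart in all 7 tumours and missed the threshold (log2 fold change 1.11 ± 0.26, edgeR adjusted p = 0.0612). Of 12 cytotoxic lymphocyte genes and 9 natural killer receptor genes 0 were called by edgeR, 4 and 1 by DESeq2, 5 of each list were higher at an unadjusted p under 0.05, and the medians were 0.71 and 0.72. For natural killer receptor genes the count of 5 was 2 without the libraries with acinar RNA, and 2 to 6 with 1 tumour left out. For cytotoxic lymphocyte genes it was 4 to 8 with 1 tumour left out. Ctla4 and Cd274, which encodes PD-L1, had log2 fold changes of 0.66 ± 0.30 and 0.39 ± 0.18 (edgeR adjusted p of 0.302 and 0.308). B cell genes had a median of 0.09 and 0 of 11 called by edgeR or DESeq2, also 0 at an unadjusted p under 0.05. The type I interferon-stimulated genes, a usual readout of DNA sensing after PARP inhibition, had a median of 0.05, with 0 of 23 called by edgeR or DESeq2 and 0 at an unadjusted p under 0.05.

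**Figure D4:**
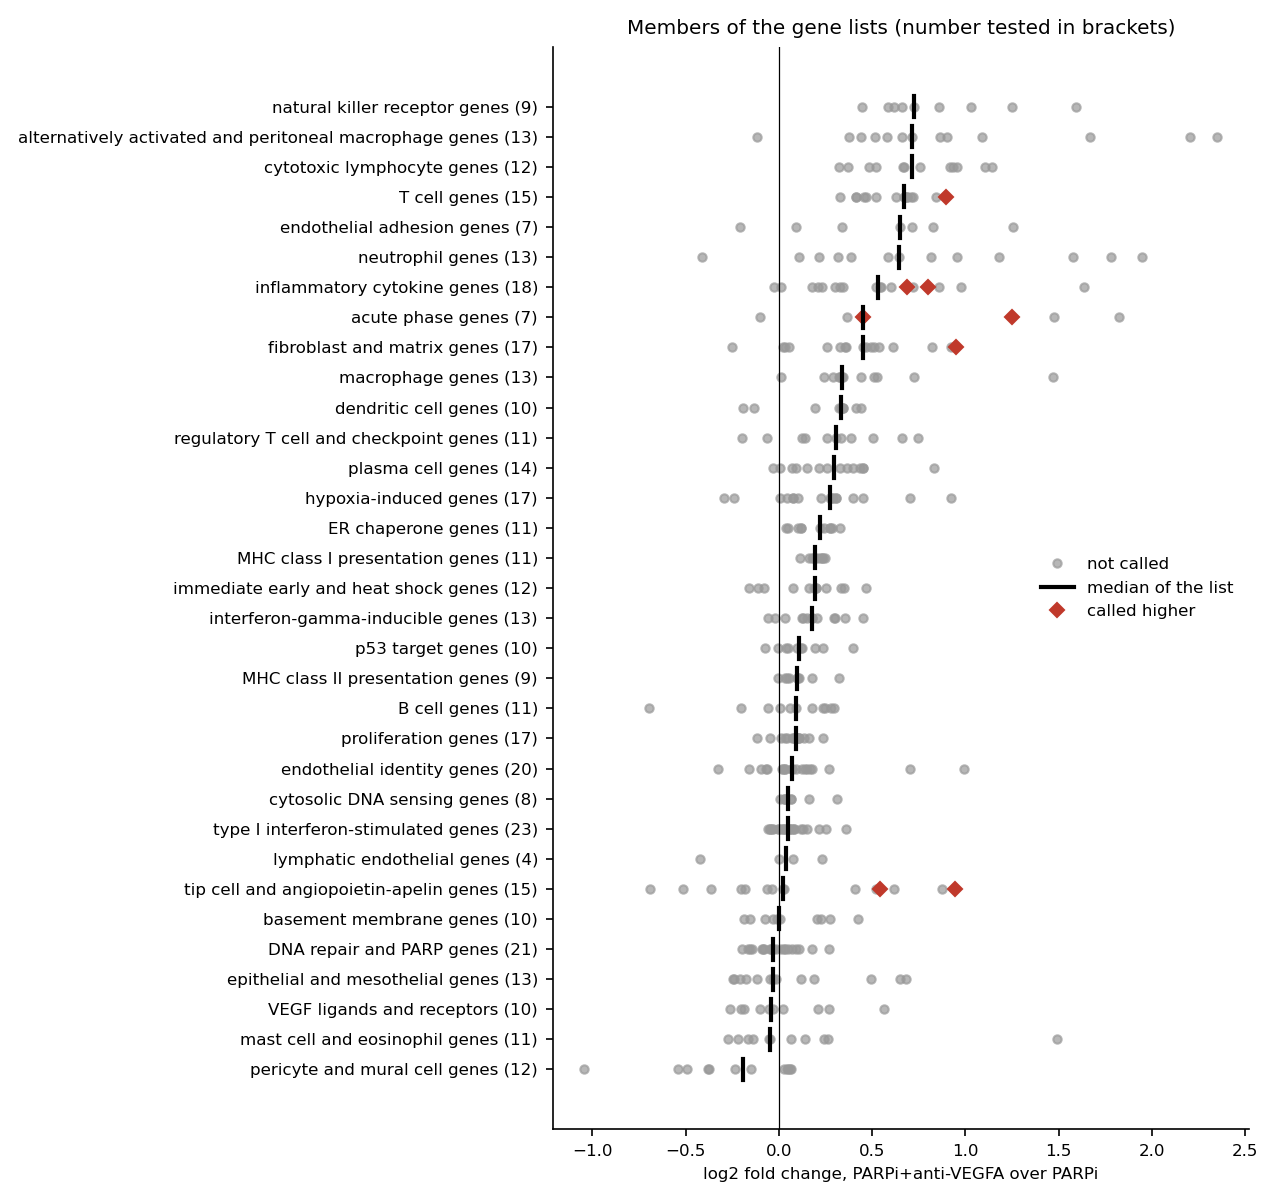
Log2 fold change of PARPi+anti-VEGFA over PARPi on the x axis for the members of the gene lists, 1 list per row; circles were not called, red diamonds were called higher, and the black bar is the list's median. Natural killer, cytotoxic and T cell genes had medians of 0.72, 0.71 and 0.67, while VEGF ligands and receptors had a median of -0.04.

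Among genes of at least 1 CPM called lower, immunoglobulin segments aside, Col10a1 had the largest change. It encodes a collagen of hypertrophic cartilage and of some tumour stroma. It had 8.13, 11.3, 2.04 and 4.12 CPM in PARPi+anti-VEGFA tumours, against 20.0, 44.8 and 50.3 CPM in PARPi tumours. It fell by 2.57 on the log2 scale (SE 0.53, edgeR adjusted p = 0.0395), with no overlap. Mme, the membrane peptidase neprilysin, had 30.8, 27.5, 21.9 and 24.8 CPM with PARPi+anti-VEGFA, against 44.5, 57.0 and 40.5 CPM with PARPi (log2 fold change -0.85 ± 0.14, edgeR adjusted p = 0.0223). Vtcn1, which encodes the T cell inhibitory ligand B7-H4, had 6.92, 5.68, 5.07 and 5.86 CPM with PARPi+anti-VEGFA, against 13.6, 12.9 and 7.76 CPM with PARPi. Its log2 fold change was -0.96 ± 0.20 (edgeR adjusted p = 0.0425), and PARPi tumour 3 lay nearest the anti-VEGFA tumours. Maged2, an X-linked gene of the MAGE family, had 288, 314, 254 and 239 CPM with PARPi+anti-VEGFA, against 426, 404 and 372 CPM with PARPi (log2 fold change -0.55 ± 0.10, edgeR adjusted p = 0.0279).

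Other genes called lower encode matrix and junction proteins. Col17a1, the hemidesmosome collagen, fell by 0.83 on the log2 scale, Ltbp1, which holds latent TGF-beta in the matrix, by 0.59, and Cemip, a hyaluronan-degrading protein, by 0.54 (edgeR adjusted p of 0.0405, 0.0279 and 0.0366). The potassium channel gene Kcnma1 fell by 0.72 (edgeR adjusted p = 0.0394). Tnni1, a slow-muscle troponin, fell by 0.79 (edgeR adjusted p = 0.0405). It had 11.6, 15.5, 11.1 and 11.2 CPM with PARPi+anti-VEGFA, against 21.5, 21.8 and 20.5 CPM with PARPi. PARPi tumour 1 held skeletal muscle RNA, and the part of muscle RNA in the change of Tnni1 was not tested. A pair of immunoglobulin segments was among the calls. Ighv1-63 had 0.0589, 0, 0 and 0 CPM with PARPi+anti-VEGFA, against 13.2, 2.02 and 22.4 CPM with PARPi. Ighv1-12 had 0.0884, 0.0294, 0.0365 and 0.151 CPM with PARPi+anti-VEGFA, against 0.0288, 2.79 and 18.5 CPM with PARPi. The groups did not overlap for Ighv1-63 and overlapped for Ighv1-12, and each was called in 1 of 7 fits that left out 1 tumour. Wt1os, which lies antisense to Wt1, was called with a log2 fold change of -0.33 ± 0.06, and the strand setting of the counting is not given in the sources used here, so its reads may not be separable from those of Wt1.

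DNA repair and PARP genes had a median of -0.03, with 0 of 21 called by edgeR or DESeq2 and 0 at an unadjusted p under 0.05. Parp1, the target of olaparib, had 288, 280, 235 and 236 CPM with PARPi+anti-VEGFA, against 305, 263 and 294 CPM with PARPi (edgeR adjusted p = 0.338). Proliferation genes had a median of 0.09, with 0 of 17 called by edgeR or DESeq2 and 0 at an unadjusted p under 0.05. In the lists not yet described 0 genes were called by edgeR, while DESeq2 called 2 neutrophil genes, 1 endothelial adhesion gene and 1 alternatively activated macrophage gene. At an unadjusted p under 0.05, 7.94% of all genes tested were higher and 7.53% lower. At that threshold 5 of 11 regulatory T cell and checkpoint genes and 4 of 13 neutrophil genes were higher. So were 4 of 13 alternatively activated macrophage genes, 4 of 11 ER chaperone genes and 3 of 7 endothelial adhesion genes. Higher too were 2 of 14 plasma cell, 2 of 11 MHC class I, 2 of 10 p53 target and 2 of 8 cytosolic DNA sensing genes. Of 12 immediate early and heat shock genes 1 was higher. Of 10 dendritic cell genes 1 was lower and 0 higher, and of 13 epithelial and mesothelial genes 2 were lower and 1 higher. Medians there were 0.72 for alternatively activated and peritoneal macrophage genes, 0.65 for endothelial adhesion genes, 0.65 for neutrophil genes, 0.34 for dendritic cell genes, 0.31 for regulatory T cell and checkpoint genes, 0.29 for plasma cell genes, 0.22 for ER chaperone genes, 0.19 for MHC class I and 0.10 for MHC class II presentation genes, and 0.18 for interferon-gamma-inducible genes. They were 0.19 for immediate early and heat shock genes, 0.11 for p53 targets, 0.05 for cytosolic DNA sensing genes, 0.04 for lymphatic endothelial genes, -0.03 for epithelial and mesothelial genes, -0.05 for mast cell and eosinophil genes and -0.16 for erythroid genes. Several of these medians moved by over 1.5 times with 1 tumour left out or with the library quality covariate. That of endothelial adhesion genes was 0.37 without PARPi+anti-VEGFA tumour 4 and 0.36 with the covariate, and that of neutrophil genes was 1.04 without PARPi tumour 1 and 1.19 with the covariate. That of dendritic cell genes was 0.18 without PARPi+anti-VEGFA tumour 3 and 0.17 with the covariate. That of plasma cell genes was 0.16 without PARPi tumour 3 and 0.47 with the covariate. The erythroid median was -0.74 without PARPi+anti-VEGFA tumour 2 and 0.32 without PARPi tumour 3. The count of 5 regulatory T cell and checkpoint genes ranged from 0 to 6 with 1 tumour left out.

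The same antibody was then followed on the background of olaparib with ICB, in 7 other tumours. There 0 genes (0.0%) were called by edgeR, with 745 at an unadjusted p under 0.05 (2.03% higher and 2.07% lower) and a smallest adjusted p of 0.718, while DESeq2 called 12 and limma on log2 RPKM called 2. The 54 genes called higher without ICB had a median log2 fold change of 0.096 there, and 42 had a positive value, against 50.1% of all genes tested. The 50 called lower had a median of -0.077, and 37 had a negative value. These libraries share no tumour with those that chose the genes. Levels of a few of the genes follow. Svep1 averaged 27.9 ± 0.762 CPM in tumours given PARPi+ICB+anti-VEGFA (SD, n = 4) and 28.5 ± 7.02 CPM in tumours given PARPi+ICB (SD, n = 3), both near the 27.3 ± 2.65 CPM of PARPi+anti-VEGFA tumours (SD, n = 4). Its mean was 11.7 CPM in untreated tumours. For Serpina3n the means were 52.5 CPM with PARPi+ICB+anti-VEGFA and 55.5 CPM with PARPi+ICB, and for Lox 102 and 112 CPM. Svep1, Serpina3n and Lox were not among the 42 genes with a positive value. Cilp and Spon1 were, and averaged 52.2 and 139.5 CPM with PARPi+ICB+anti-VEGFA, against 39.1 and 119.8 CPM with PARPi+ICB. Mme had 21.5 CPM with PARPi+ICB+anti-VEGFA and 28.3 CPM with PARPi+ICB, against 57.6 CPM in untreated tumours.

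The difference between the antibody's effects with and without ICB was tested directly, and 0 genes (0.0%) were called by edgeR, with 1188 at an unadjusted p under 0.05 (3.28% positive and 3.26% negative), a smallest adjusted p of 0.456, 17 called by DESeq2 and 1 by limma. The effects on the 2 backgrounds are thus not shown to differ for any gene by edgeR. For Svep1 the difference, effect with ICB minus effect without, was -1.02 on the log2 scale, and for Ctsk, a collagen-degrading protease named after its values were seen, it was -0.06. Ctsk rose by 0.52 ± 0.09 without ICB (edgeR adjusted p = 0.0223), and its log2 fold change with ICB was 0.46.

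**Figure D5:**
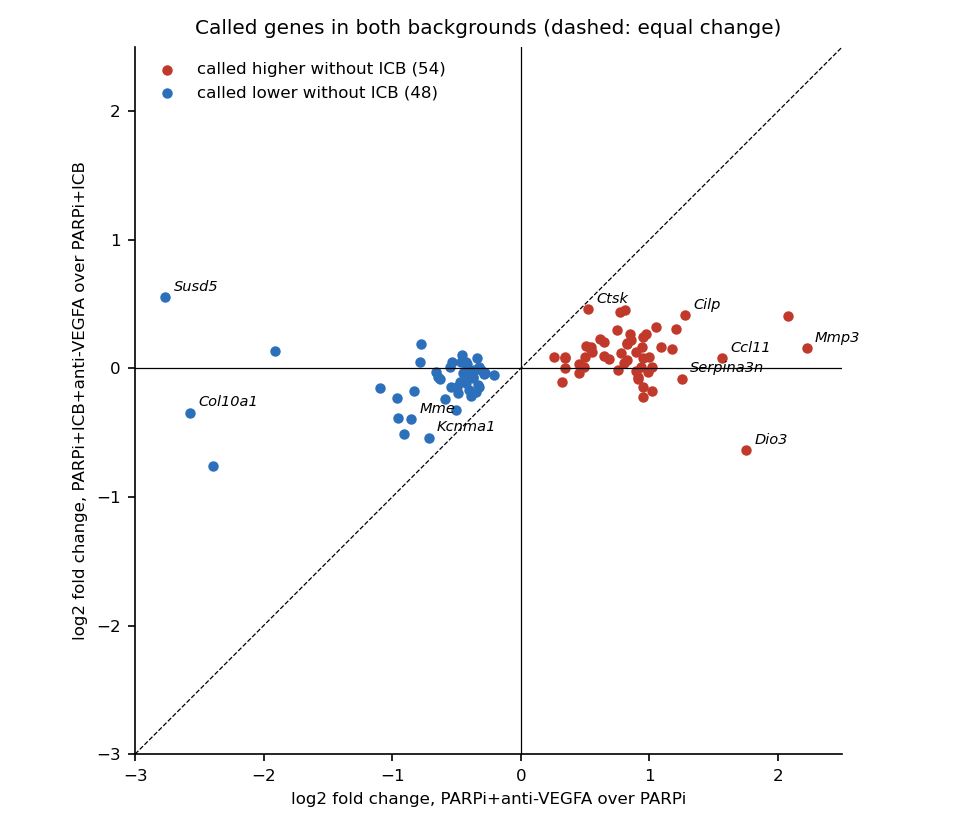
Log2 fold change of anti-VEGFA added to PARPi+ICB on the y axis against anti-VEGFA added to PARPi on the x axis, for the called genes other than both immunoglobulin segments; red points were called higher and blue points lower without ICB. Most points lie near 0 on the y axis, with medians of 0.096 for the 54 higher genes and -0.077 for the 50 lower genes, segments included.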

How the data were processed

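Tumour RNA was read from a table of deposited counts, whole-number reads per Ensembl gene, and from a second table of log2 RPKM values that the authors deposited. STAR, HTSeq and GRCm38 are named in the submitters' processing notes. Versions, annotation release and strand setting are not given in the sources used here. Per the labels, libraries were stranded and made from total RNA with depletion of cytoplasmic RNA.

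Counts of all 20 libraries were fitted with edgeR 4.0.16 in R 4.3.3 (quasi-likelihood F test, TMM, 1 coefficient per group), so that the groups share 1 estimate of the spread. Of 55406 genes, 18144 passed filterByExpr (minimum count 10, minimum total 15). The p-values were Benjamini-Hochberg adjusted over all 18144, and a gene was called under 0.05. SE is the absolute log2 fold change over the square root of F. Symbols came from GENCODE M21 (55227 identifiers matched). The script was tested on simulated data. The p-values rest on a spread between animals estimated over all 20 libraries, not on the compared groups alone. That spread was unequal. Chi-square per degree of freedom between pairs of libraries was 28.5 to 37.2 in PARPi tumours and 32.0 to 50.7 in PARPi+anti-VEGFA tumours. In PARPi+ICB+anti-VEGFA tumours it was 51.2 to 144. With 4 and 3 animals a group, precision is limited by their number rather than by depth, since 26.9 to 34.6 M counts were read per library.

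Genes named are the 15 largest changes each way among called genes of at least 1 CPM on average with no overlap between the groups, without gene models that have no name and without segments of antibody or T cell receptor genes, up to 4 members per list by smallest p, and a fixed set around VEGF, PARP and checkpoints; others are marked. That gap was part of the choice and is no further result. The 38 lists (480 genes, 455 tested), members and tests were chosen with earlier results of these data known. Alternatives were DESeq2 size factors, no filter, DESeq2 1.42.0's Wald test, the compared groups alone, replicate number as a block, limma 3.58.1 on the log2 RPKM values, each library left out, libraries with acinar genes above 2 log2 CPM left out, and the library quality covariate. Same-numbered tumours did not deviate together (correlations 0.069, 0.14 and -0.039), so numbers were not taken as pairs.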

Additional observations from a re-analysis of the deposited data

Results flagged for a closer look

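Of 82 lists and named genes examined for 1 tumour standing apart from the other 3 of the PARPi+anti-VEGFA group, 4 did. Chance flags about 1 in 20 such groups. Scn7a, a sodium channel gene called higher, was lowest in PARPi+anti-VEGFA tumour 4 at 2.529 log2 CPM. Tnni1 was highest in tumour 2 at 3.962 log2 CPM. Dendritic cell genes were highest in tumour 3, with a mean of 3.702 log2 CPM. Neutrophil genes were lowest in tumour 1, with a mean of -0.726 log2 CPM.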

How the results depend on the processing

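The number of genes called with anti-VEGFA added to PARPi was 104, and it was 649 with DESeq2's Wald test, 47 in a fit of the compared groups alone, 9 with limma on log2 RPKM and 1 with the library quality covariate. It ranged from 0 to 216 with 1 tumour left out. It was 102 with DESeq2 size factors, 151 with no filter, 93 with the replicate block and 86 without libraries with acinar RNA. In the fit without acinar RNA 23 of the 54 genes called higher were still called. Of the PARPi+anti-VEGFA group that fit kept only tumours 2 and 3, the highest in adipocyte genes. The median log2 fold change of adipocyte genes was 3.42 there, against 2.60 in the main fit. In the fit of the compared groups alone, 18 of the 54 called higher and 5 of the 50 called lower were still called. No called gene, 0 of 54 and 0 of 50, was called in all 7 fits that left out 1 tumour. In at least 4 of these fits 6 of the 54 and 3 of the 50 were called. Each of the 104 kept its sign in these fits. The cause of the lower counts was not tested, though leaving out a tumour also leaves fewer samples. Replicate numbers did not pair the tumours. On the ICB background the count of 0 became 12 with DESeq2's Wald test and 2 with limma on log2 RPKM, and for the difference of effects 17 and 1; with 1 tumour left out both stayed at 0. Adipocyte genes had a median log2 fold change of 2.60, ranging from 1.49 to 3.07 with 1 tumour left out. Of these 9 genes 0 were called by edgeR and 2 by DESeq2, with 7 at an unadjusted p under 0.05. Of 12 acinar genes 0 were called by edgeR and 7 by DESeq2, and 10 were higher at that threshold. Of 6 skeletal muscle genes 0 were called by edgeR and 1 by DESeq2, and 4 were lower. Of 5 library quality RNAs 0 were called by edgeR and 2 by DESeq2, and 3 were lower and 1 higher. With limma on the authors' log2 RPKM values most list medians were smaller. These values have 1 added to each RPKM, which shrinks log2 fold changes most at low levels, and its part was not tested. ER chaperone genes (0.20, against 0.22 in the main fit) and acute phase genes (0.43, against 0.45) moved little. Of 38 lists, 28 had a median of the same sign and smaller by over 1.5 times, among them T cell genes (0.12), natural killer receptor genes (0.07), neutrophil genes (0.09) and fibroblast and matrix genes (0.27).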
